A study of Homo sapiens with 4 samples.

Results

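The genes of the HOXA, HOXB, HOXC and HOXD clusters were followed on 4 one-colour arrays from LNCaP-derived cells in which tetracycline induces NFκB (AD)-MBD. Members were the probes whose RefSeq accession pairs with 1 gene named HOXA, HOXB, HOXC or HOXD with a number. Probes without such an accession were not taken. Antisense genes were not taken. The report covers 41 probes for 37 genes, of 34127 non-control probes and 19480 named genes. Of the 37 genes, 33 had 1 probe and 4 (HOXA9, HOXA10, HOXB2 and HOXD9) had 2. The HOXA cluster was read by 12 probes, HOXB by 10, HOXC by 9 and HOXD by 10.

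TR9-MeTA14 and TR15-MeTA5 are 2 stable lines made from LNCaP, a human prostate cancer line of luminal character. Both carry a Tet repressor and, under its control, a FLAG-tagged fusion of the NFκB activation domain with a methyl-CpG binding domain (MBD), a domain that binds methylated CpG dinucleotides. The question was which genes change when the fusion is made. Each line was grown without tetracycline (-Tet) or with it for 4 days (+Tet), with 1 array per condition, so that neither line has a replicate and the 2 lines alone stand for the spread of the tetracycline effect. Cells that lack the fusion construct were not on these arrays. An effect of tetracycline itself and of the fusion cannot be told apart.

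HOX genes encode homeodomain transcription factors that give position along the body axis in the embryo. Their order within a cluster follows where they act, from anterior (low numbers) to posterior (high numbers), and they bind DNA together with cofactors of the PBX and MEIS families. Polycomb and Trithorax proteins hold them off or on, retinoic acid induces genes at the anterior end, and several HOX CpG islands are known to be methylated in cancers.

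The sequences just before the start of transcription are shown for 4 genes that mark the range of the results. HOXA7 and the HOXA9 probe A_23_P500998 had the largest lower bounds and fold changes with tetracycline among the HOX probes. The other HOXA9 probe stayed within the cut-off in both lines. HOXD8 and HOXD4 were not well above background on any array. Each is the 250 bases upstream of a RefSeq start (GRCh38.p14), 5′ to 3′ on the strand of the gene, and capitals mark CG, the dinucleotide whose methylated form the MBD binds. CG reads the same on both strands.

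HOXA7, chr7:27156676-27156925, minus strand: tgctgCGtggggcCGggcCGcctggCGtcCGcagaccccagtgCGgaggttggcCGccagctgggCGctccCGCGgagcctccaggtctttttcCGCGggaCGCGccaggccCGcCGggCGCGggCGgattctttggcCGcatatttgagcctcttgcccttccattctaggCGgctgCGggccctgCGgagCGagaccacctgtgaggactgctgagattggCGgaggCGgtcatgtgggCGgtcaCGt

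HOXA9, chr7:27165538-27165787, minus strand: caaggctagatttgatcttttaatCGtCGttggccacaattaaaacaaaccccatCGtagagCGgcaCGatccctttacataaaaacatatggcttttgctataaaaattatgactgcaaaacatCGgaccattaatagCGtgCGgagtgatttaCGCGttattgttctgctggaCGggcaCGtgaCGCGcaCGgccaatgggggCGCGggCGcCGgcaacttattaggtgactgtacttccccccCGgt

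HOXD8, chr2:176129455-176129704, plus strand: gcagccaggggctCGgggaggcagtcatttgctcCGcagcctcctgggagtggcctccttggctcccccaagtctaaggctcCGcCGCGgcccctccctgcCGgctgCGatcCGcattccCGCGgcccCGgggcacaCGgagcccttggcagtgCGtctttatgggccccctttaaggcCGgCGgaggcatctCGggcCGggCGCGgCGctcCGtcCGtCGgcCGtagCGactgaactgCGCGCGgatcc

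HOXD4, chr2:176151300-176151549, plus strand: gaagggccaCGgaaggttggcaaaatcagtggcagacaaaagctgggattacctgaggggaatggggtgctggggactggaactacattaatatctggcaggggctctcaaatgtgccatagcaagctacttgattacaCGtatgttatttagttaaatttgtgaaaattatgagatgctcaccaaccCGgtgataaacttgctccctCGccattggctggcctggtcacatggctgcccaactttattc

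These windows held 28 CG (HOXA7), 20 CG (HOXA9), 28 CG (HOXD8) and 4 CG (HOXD4). Of all 35116 such windows in the table, 93.9% held at least 1 CG, and the median was 11, with 3 at the 25th and 23 at the 75th percentile. The HOXA7 and HOXD8 windows each held more CG than 84.1% of all windows, although HOXA7 was above background on both +Tet arrays and HOXD8 on none. The table had windows for 20 of the 37 HOX genes, with 0 to 40 CG each, which is 54.1% of the genes and too few to compare CG content over the set. CG counts say nothing of methylation, which was not measured on these arrays.

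Signals are Agilent processed signals, background-subtracted within each array. Between 20560 and 24217 probes per array carried the scanner software's flag for a signal well above background. The lowest flagged signal lay between 13.9 and 19.2. Fold changes are ratios after each array was divided by its own 75th percentile, which divides the raw +Tet over -Tet ratio by 1.26 in TR9-MeTA14 and by 1.48 in TR15-MeTA5. Where the dimmer array was not well above background, its lowest flagged signal (or the probe's own signal, if higher) was put in its place and the fold is given as "at least". A change of 2-fold was the cut-off. A bound below it does not settle whether the change reached it, and such bounds are not counted as passing. Replicate spots within an array gave an SD of 0.087 for a log2 ratio, which is technical error only.

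More HOX probes were detected with tetracycline than without. In TR9-MeTA14, 16 of the 41 probes were above background without tetracycline and 28 with it, and in TR15-MeTA5 the counts were 14 and 26. Over all probes the shares above background were 64.2% and 71% in TR9-MeTA14 and 60.2% and 63.3% in TR15-MeTA5. In all, 13 probes were above background on all 4 arrays and 13 on none, where 56.5% and 25.4% of all probes were. Of the 24 HOX probes that were dark (not well above background) on both -Tet arrays, 10 were above background on both +Tet arrays (4 in HOXA, 4 in HOXB, 2 in HOXC and 0 in HOXD), against 7.74% of all probes dark on both -Tet arrays. In bulk RNA, more cells expressing a gene and more RNA per cell cannot be told apart.

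**Figure D1:**
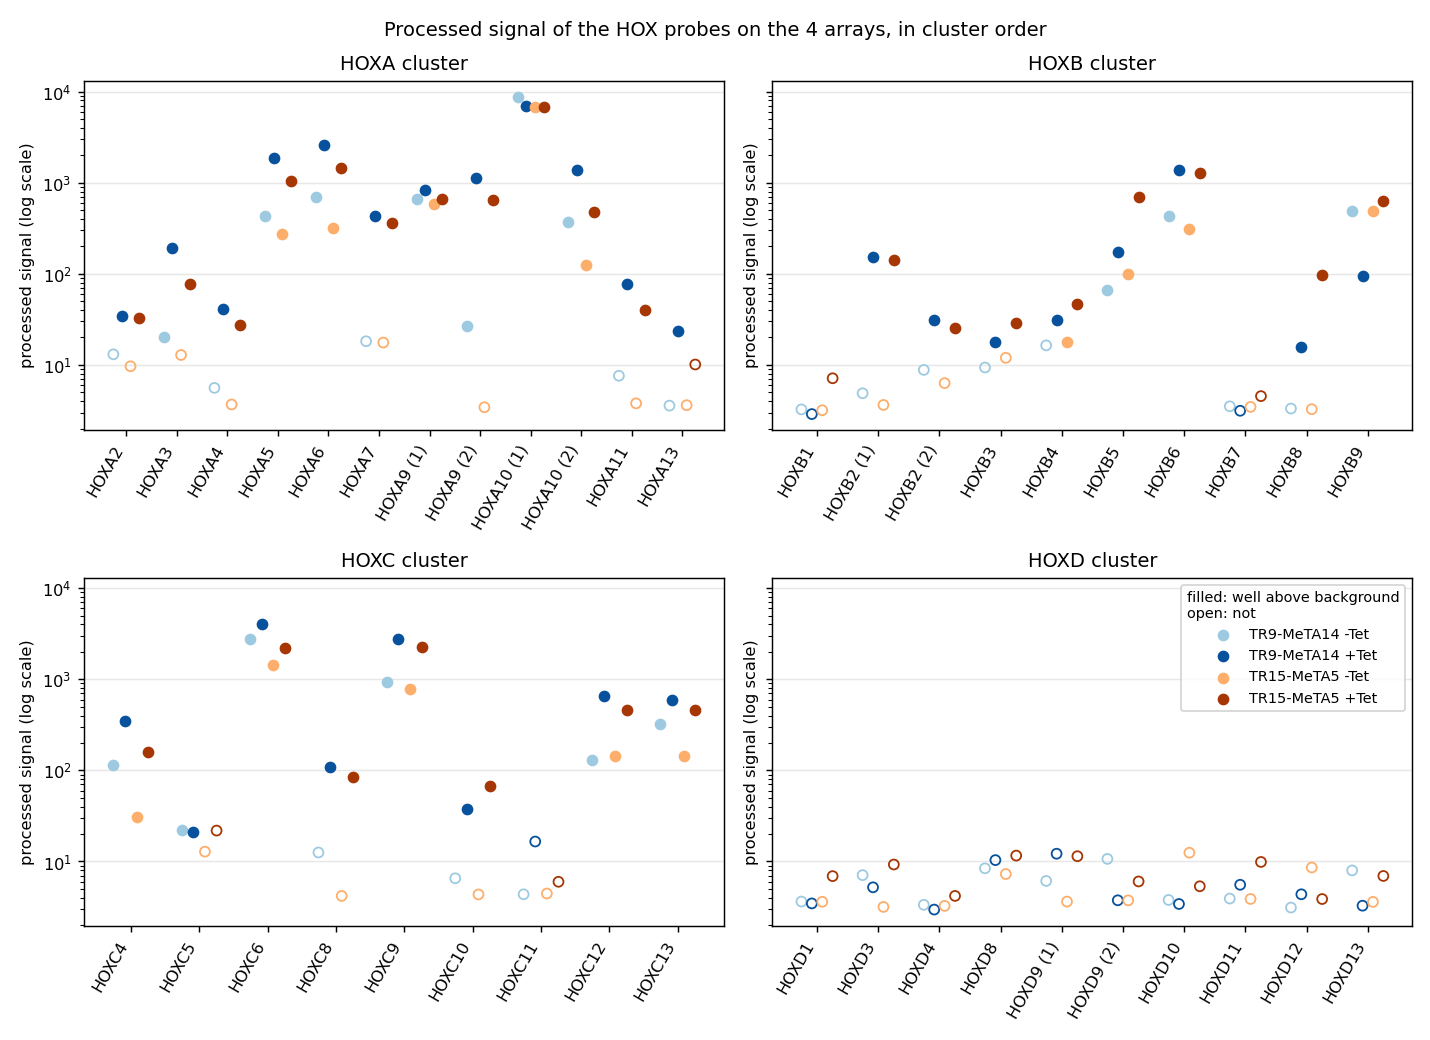
Processed signal (log scale) of each of the 41 HOX probes on the 4 arrays, by cluster and in number order, with 1 point per array, filled where the probe was well above background and open where it was not. For genes with 2 probes, (1) and (2) are A_33_P3416231 and A_23_P500998 (HOXA9), A_33_P3288649 and A_24_P77904 (HOXA10), A_23_P107283 and A_33_P3271273 (HOXB2), and A_23_P429383 and A_33_P3333238 (HOXD9). The HOXD signals all lie between 2.96 and 12.5, below the lowest flagged signal of any array.

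With tetracycline, 15 of the 41 HOX probes (36.6%) were at least 2-fold higher in TR9-MeTA14, where 10.8% of all probes were, and 1 was lower (HOXB9), where 10.7% of all probes were. In TR15-MeTA5, 15 were at least 2-fold higher (background 5.56% of all probes) and 0 lower (background 1.75%). Upwards in both lines passed 12 probes for 12 genes (29.3% of the probes), against 4.45% of all probes, and 0 were at least 2-fold lower in both, against 0.566%. Of these 12 probes, 6 were in HOXA, 3 in HOXB, 3 in HOXC and 0 in HOXD. HOXA3, HOXB5, HOXC4, HOXC8 and HOXC12 fell below the cut-off in either line or both under another scaling. No HOX probe passed the cut-off in opposite directions in the 2 lines.

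In the HOXA cluster, all 12 probes were above background on at least 1 array. HOXA2, HOXA3 and HOXA4 were dim without tetracycline. HOXA2 gave 13.1 and 34.8 in TR9-MeTA14 and 9.66 and 33.0 in TR15-MeTA5. It was detected on the +Tet arrays alone, at least 1.79-fold and at least 1.45-fold higher. These bounds do not settle whether the change reached the cut-off. HOXA3, which acts in pharyngeal organ development, gave 20.0 and 194 in TR9-MeTA14 (7.70-fold higher) and 12.8 and 77.9 in TR15-MeTA5 (at least 3.42-fold higher). HOXA4 gave 5.59 and 41.5, and 3.68 and 27.7. Its bounds were at least 2.13-fold in TR9-MeTA14 and at least 1.21-fold in TR15-MeTA5, where the bound does not settle whether the cut-off was reached.

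HOXA5, HOXA6 and HOXA7 were at least 2-fold higher in each line. HOXA5, a gene of lung and axial patterning, gave 436 and 1850.0 in TR9-MeTA14 and 272 and 1041 in TR15-MeTA5. HOXA6 gave 697 and 2582, and 318 and 1449.9. For both genes the 2 +Tet signals lay above the 2 -Tet signals, and the scaled values were 3.37-fold and 2.59-fold higher for HOXA5 and 2.94-fold and 3.08-fold higher for HOXA6. HOXA7, a gene that takes part in blood cell development, was dark without tetracycline in both lines (18.2 and 17.6) and gave 433 and 361 with it. That is at least 18.9-fold higher in TR9-MeTA14 and at least 13.9-fold higher in TR15-MeTA5.

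HOXA9 and HOXA10, both needed in blood progenitors and in the urogenital tract, were each read by 2 probes that gave different changes. Probe A_23_P500998 for HOXA9 gave 26.8 and 1129 in TR9-MeTA14 and 3.43 and 647 in TR15-MeTA5, 33.4-fold and at least 28.4-fold higher. Probe A_33_P3416231, assigned to the same HOXA9 accession, gave 670.4 and 832, and 584 and 668. Its scaled values were 1.01-fold and 1.29-fold lower, and their direction turned with the scaling (log2 -0.02 to 0.12 in TR9-MeTA14 and -0.37 to 0.06 in TR15-MeTA5). For HOXA10, probe A_24_P77904 gave 375 and 1386, and 125 and 478, 2.94-fold and 2.58-fold higher. Probe A_33_P3288649 for HOXA10, with the highest signals of the HOX probes, gave 8761 and 6978, and 6725 and 6835, 1.58-fold and 1.45-fold lower and within the cut-off. RefSeq also lists a read-through transcript of HOXA10 and HOXA9. Which transcripts each probe reads was not tested.

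At the posterior end, HOXA11, a gene of limb and uterus, was dark without tetracycline (7.60 and 3.78) and gave 77.1 and 40.0 with it. Its bounds were at least 3.96-fold in TR9-MeTA14 and at least 1.75-fold in TR15-MeTA5, where the bound does not settle whether the cut-off was reached. HOXA13, needed for distal limb and urogenital development, prostate included, was above background on 1 array alone, at 23.7 in TR9-MeTA14 +Tet against 3.57 without (at least 1.22-fold). It gave 3.61 and 10.1 in TR15-MeTA5.

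The HOXB cluster, whose genes act in hindbrain, neck and thorax, was dark at 2 of its 9 genes. HOXB1 lay between 2.88 and 7.13 and HOXB7 between 3.14 and 4.54 on the 4 arrays. HOXB2, a hindbrain gene, was dark in both lines without tetracycline: probe A_23_P107283 gave 4.88 and 154 in TR9-MeTA14 and 3.63 and 143 in TR15-MeTA5. That is at least 7.92-fold and at least 6.27-fold higher. The other HOXB2 probe, A_33_P3271273, was dim at 8.81 and 31.5, and 6.31 and 25.6, and its bounds were at least 1.62-fold and at least 1.12-fold. HOXB3 gave 9.36 and 18.0 in TR9-MeTA14 and 12 and 29.0 in TR15-MeTA5, with a bound of at least 1.27-fold in the latter. HOXB4, known for the expansion of blood stem cells, gave 16.4 and 31.0 (at least 1.5-fold), and 17.8 and 47.2 (1.79-fold). HOXB4 in TR15-MeTA5 was below the cut-off, but its log2 change there ran from 0.24 to 1.27 with the scaling. The bounds for HOXB3 and HOXB4 do not settle whether those changes reached it. HOXB3 had no fold in TR9-MeTA14.

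HOXB5 and HOXB6 were higher in both lines. HOXB5 gave 66.7 and 174 in TR9-MeTA14 (2.07-fold) and 99.4 and 706 in TR15-MeTA5 (4.80-fold). Its log2 change in TR9-MeTA14 ran from 0.51 to 1.19 with the scaling, so its pass there depended on the scaling. HOXB6 gave 429 and 1376 (2.55-fold), and 307 and 1263 (2.79-fold). The +Tet signals of both genes lay above their -Tet signals in either line. HOXB8 was dark without tetracycline (3.32 and 3.26). With it the signal was 15.9 in TR9-MeTA14, too dim for a fold, and 97.8 in TR15-MeTA5, at least 4.29-fold higher. HOXB9 gave 488 and 94.1 in TR9-MeTA14, and 484 and 629 in TR15-MeTA5. Without tetracycline its scaled value was 1.67-fold higher in TR15-MeTA5, within the cut-off. Its scaled value was 6.52-fold lower in TR9-MeTA14 and 1.14-fold lower in TR15-MeTA5, where the direction turned with the scaling (log2 -0.22 to 0.25).

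In the HOXC cluster, HOXC4, HOXC5 and HOXC6 begin at the same base in the RefSeq gene table, so the gene models overlap. HOXC4 gave 114 and 349.7 in TR9-MeTA14 (2.44-fold higher) and 30.5 and 159 in TR15-MeTA5 (3.53-fold higher). Its log2 change in TR9-MeTA14 ran from 0.88 to 1.43 with the scaling. HOXC5 was near background, at 21.9 and 21.1, and 12.8 and 21.8. HOXC6, often high in prostate cancers, was bright on all arrays, with 2761 and 4089, and 1440.4 and 2207. Its scaled change was 1.18-fold and 1.04-fold, and its TR15-MeTA5 +Tet signal lay below its TR9-MeTA14 -Tet signal. HOXC8, a gene of thoracic patterning, was dark without tetracycline (12.5 and 4.18) and gave 109.9 and 84.9 with it, at least 5.65-fold and at least 3.72-fold higher.

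Among the posterior HOXC genes, HOXC9 gave 933 and 2739.8 (2.33-fold), and 784 and 2238 (1.93-fold, just below the cut-off). Its log2 change in TR15-MeTA5 ran from 0.89 to 1.38 with the scaling. HOXC10 was dark without tetracycline (6.53 and 4.34) and gave 37.5 and 66.7 with it, at least 1.92-fold and at least 2.92-fold higher. The bound in TR9-MeTA14 does not settle whether the cut-off was reached. HOXC12 passed in both lines, from 129 to 653 in TR9-MeTA14 (4.01-fold) and from 146 to 463 in TR15-MeTA5 (2.15-fold). Its log2 change in TR15-MeTA5 ran from 0.91 to 1.54 with the scaling. HOXC13, a gene of hair and nail formation, gave 323 and 589 (1.45-fold), and 145 and 459 (2.14-fold). HOXC11 was not well above background on any array (4.36 to 16.6).

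The HOXD cluster, which acts in the limbs and the genital tubercle, was dark throughout. None of its 10 probes for 9 genes (HOXD1, HOXD3, HOXD4, HOXD8, HOXD9, HOXD10, HOXD11, HOXD12 and HOXD13) was well above background on any array. Their signals ran from 3.12 to 10.7 (median 5.01) in TR9-MeTA14 -Tet and from 2.96 to 12.2 (median 4.05) in TR9-MeTA14 +Tet. In TR15-MeTA5 they ran from 3.17 to 12.5 (median 3.68) and from 3.87 to 11.6 (median 6.92). No fold is given for them. A transcript below the lowest flagged signal would not have been seen.

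**Figure D2:**
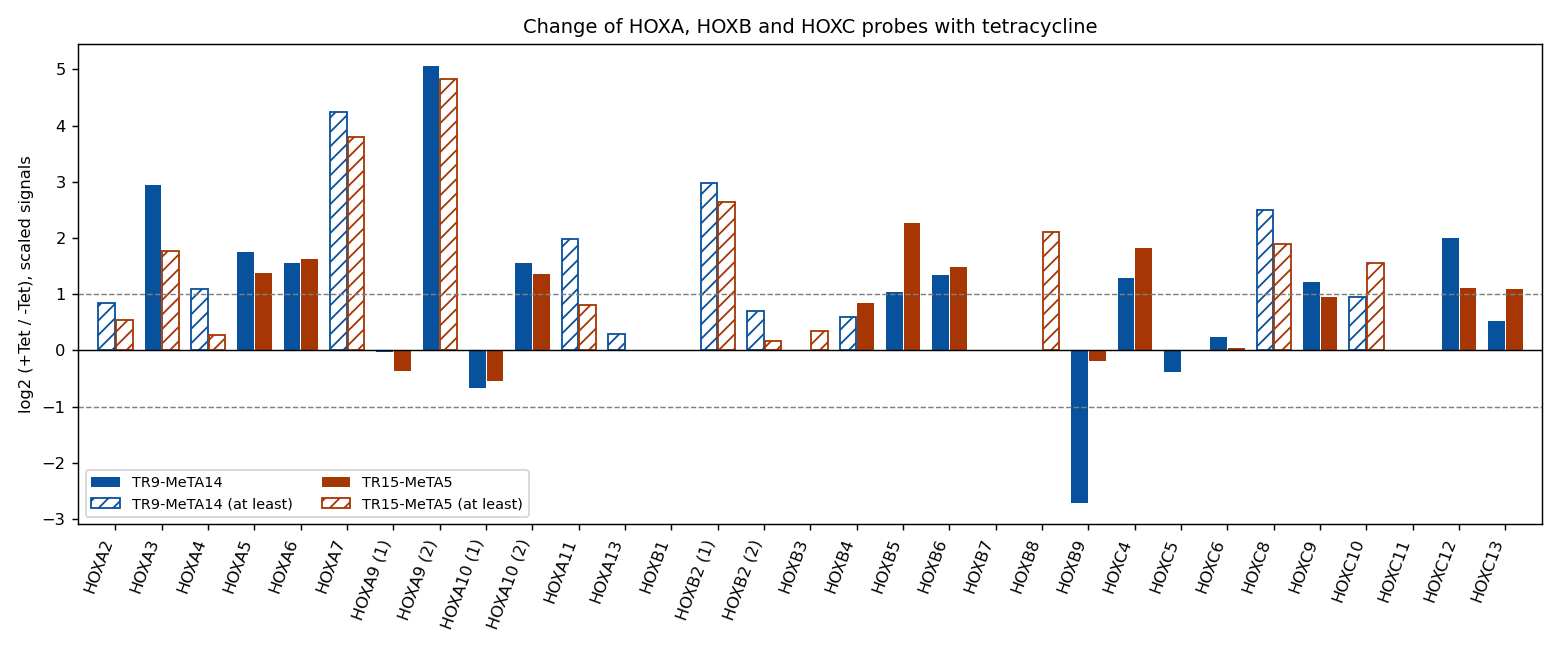
Log2 ratio of scaled signals, +Tet over -Tet, for the 31 probes of the HOXA, HOXB and HOXC clusters in TR9-MeTA14 (blue) and TR15-MeTA5 (brown), where hatched bars are bounds and probes without a bar had no fold. Dashed lines mark 2-fold; the highest bars are HOXA9 (2) at 5.06 and a bound of 4.83, and HOXA7 at bounds of 4.24 and 3.80, and the lowest is HOXB9 in TR9-MeTA14 at -2.71.

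By paralogue number within HOXA, HOXB and HOXC, 2 of 6 probes for anterior genes (numbers 1 to 3), 7 of 13 for central genes (4 to 8) and 3 of 12 for posterior genes (9 to 13) passed upwards in both lines. Over all probes 4.45% did. Above background on both -Tet arrays were 0 of the 6 anterior, 6 of the 13 central and 7 of the 12 posterior probes. The classes thus rest on bounds to unlike extents. These counts are a description. Whether the classes differ was not tested.

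Probes that pass only through the +Tet arrays had to be higher, so the 13 probes above background on all 4 arrays are given apart. They were also the 13 above background on both -Tet arrays. Their median log2 change was 1.22 in TR9-MeTA14 and 1.10 in TR15-MeTA5, where all 19298 probes above background on all arrays had medians of -0.15 and -0.19. A positive change in both lines was seen for 10 of the 13, against 23.8% of those probes. Of the 13, 7 (HOXA5, HOXA6, HOXA10 by A_24_P77904, HOXB5, HOXB6, HOXC4 and HOXC12) passed the cut-off upwards in both lines, against 4.5% of all probes above background on both -Tet arrays, and 0 passed downwards in both, against 0.969%. HOXB5, HOXC4 and HOXC12 did not pass in both lines under every scaling. The 2 lines do not share arrays.

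**Figure D3:**
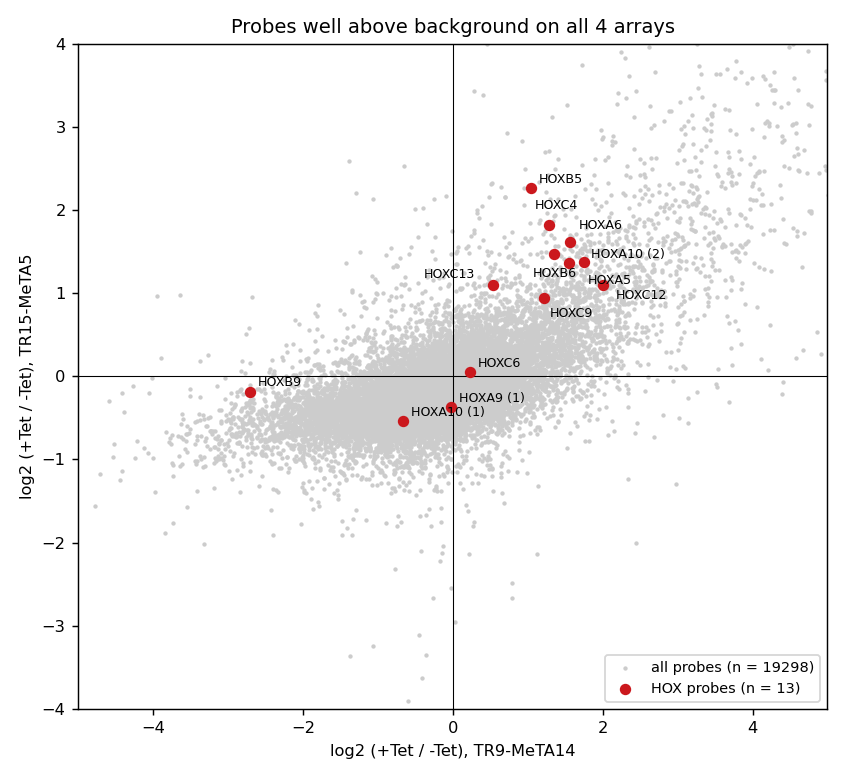
Log2 change with tetracycline in TR9-MeTA14 (x axis) against TR15-MeTA5 (y axis), scaled signals, for the 13 HOX probes (red) and all 19298 probes (grey) above background on all 4 arrays. In the plot 10 HOX probes lie right of and above 0, with HOXB9 far to the left at -2.71 and -0.19; 136 grey points fall outside the axes.

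A test was possible only with the 2 lines as replicates. It was limma with the line as a block, 1 residual degree of freedom and Benjamini-Hochberg adjustment over 22808 probes above background on at least 2 arrays. limma pulls the spread of each probe towards a trend with signal over all probes tested. Its SEs and p-values are therefore not the spread between the 2 lines alone. Of 27 HOX probes tested, 4 were higher at an adjusted p under 0.05, where 2.6% of all probes tested were, and 0 lower, where 0.0132% were. At an unadjusted p under 0.05 there were 20 HOX probes of either direction, where 19.5% of all probes were. The 4 were HOXA7 (log2 4.02, SE 0.31, limma adjusted p = 0.018), HOXA9 by A_23_P500998 (6.03, SE 0.55, limma adjusted p = 0.0239), HOXB2 by A_23_P107283 (4.69, SE 0.36, limma adjusted p = 0.018) and HOXC8 (3.29, SE 0.43, limma adjusted p = 0.0475). HOXA11 followed at a limma adjusted p of 0.0509. All 4 were higher in both lines.

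Of those 4 probes, 3 (HOXA7, HOXB2 and HOXC8) entered the test through their +Tet arrays alone, as did 10 of the 27 tested. Over the whole array, 895 probes were above background on both +Tet arrays and on neither -Tet array, where 22808 were tested. Probes of this kind had to be higher. The counts among the 27 and the shares of all probes tested therefore compare unlike mixes of probes. With probes restricted to those above background on all 4 arrays, limma called 0 of 13 HOX probes, where it called 182 of all 19298. Of the 13, 9 had an unadjusted p under 0.05 by limma, where 3675 of all 19298 had. limma takes -Tet values below background as they were measured, so its log2 sizes for HOXA7, HOXA9, HOXB2 and HOXC8 are no bounds.

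Of the 41 HOX probes, 15 could be compared between the lines without tetracycline, and 1 was at least 2-fold higher in TR15-MeTA5 (HOXB5, 2.51-fold, where 5.35% of all probes were higher) and 1 was lower (HOXC4, 2.21-fold, where 3.48% were). Of all probes compared, 8.44% were higher and 5.49% lower, so that these counts are near the background. With scaling on the spike-in probes the counts were 0 higher and 6 lower, and 1.08% of all compared probes were then higher and 44.4% lower.

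With tetracycline, 26 could be compared, and 6 of the 41 were at least 2-fold higher in TR15-MeTA5, where 9.61% of all probes were. Of the 6, 5 were in the HOXB cluster: HOXB3 (2.31-fold), HOXB4 (2.18-fold), HOXB5 (5.83-fold), HOXB8 (8.81-fold) and HOXB9 (9.58-fold). The other was HOXC10 (2.55-fold). One was lower, HOXA10 by A_24_P77904 (2.02-fold), where 6.83% of all probes were. Of all probes compared, 14.3% were higher and 10.1% lower. Spike-in scaling gave 3 higher and 8 lower, and 4.7% of all compared probes were then higher and 32% lower.

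The change with tetracycline itself could be set between the lines for the 13 probes above background on all arrays. It differed at least 2-fold between the lines for 2 of them, HOXB5 and HOXB9, where 18.6% of all such probes differed. That count is near the background. On the log2 scale the change was 1.22 higher in TR15-MeTA5 for HOXB5 and 2.52 higher for HOXB9, and between 1.14 and 1.51, and 1.58 and 2.81, under the other scalings. With 1 array per condition this difference has no test.

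**Figure D4:**
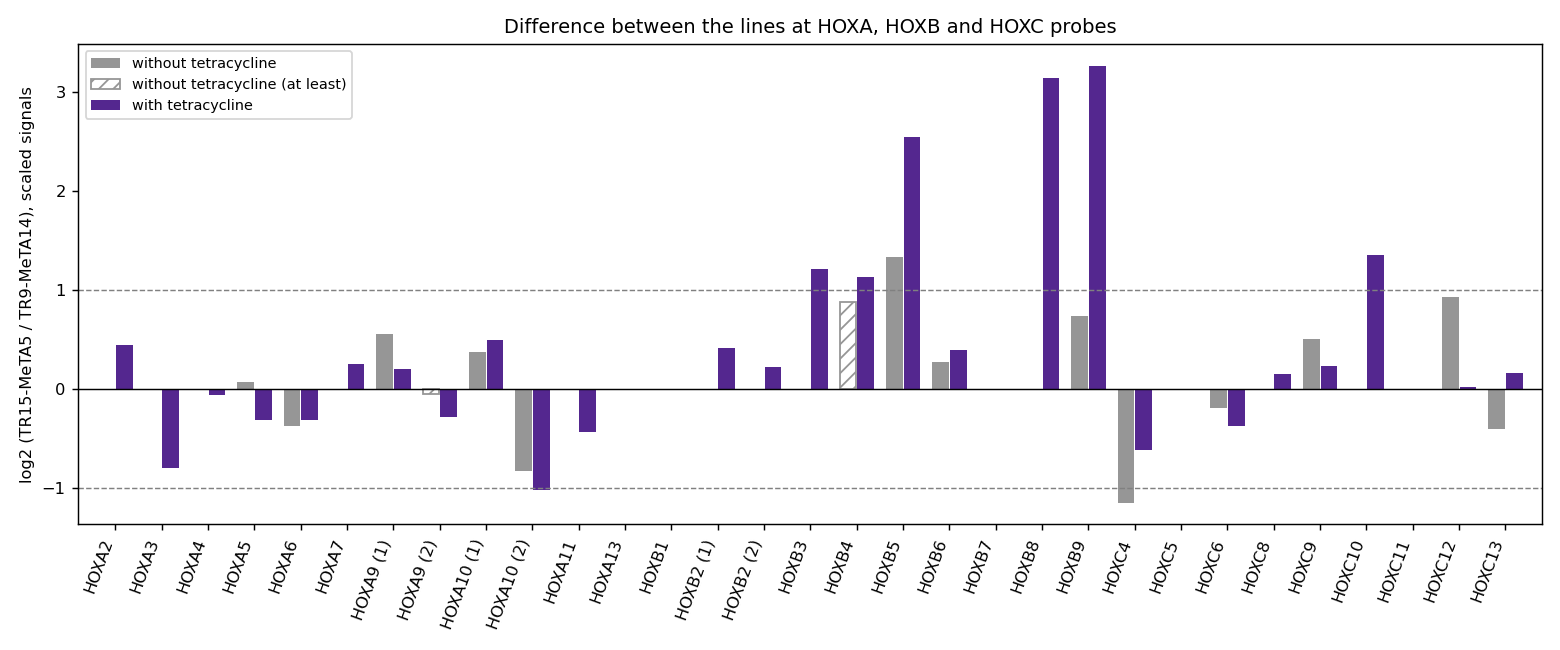
Log2 ratio of scaled signals, TR15-MeTA5 over TR9-MeTA14, for the 31 probes of the HOXA, HOXB and HOXC clusters without tetracycline (grey, hatched where a bound) and with it (purple). Dashed lines mark 2-fold; with tetracycline the highest bars are HOXB9 at 3.26, HOXB8 at 3.14 and HOXB5 at 2.54.

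The DNA-binding partners of HOX proteins were read for 8 of 9 listed genes. PBX3 and PBX4, cofactors that bind next to HOX proteins, passed the cut-off upwards in TR9-MeTA14 and in TR15-MeTA5, where 5.89% of all genes were, and 0 of 8 were lower in both, where 0.601% of all genes were. PBX4 gave 276 and 2328 in TR9-MeTA14 and 151 and 1039 in TR15-MeTA5, 6.71-fold and 4.65-fold higher (limma adjusted p = 0.0361). PBX3 gave 218 and 1237, and 119 and 413, 4.50-fold and 2.35-fold higher (limma adjusted p = 0.113). MEIS1, a partner of the posterior HOX proteins, gave 82.4 and 74.2, and 112 and 121, within the cut-off, and MEIS2 was dark on all arrays.

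Genes of the retinoic acid pathway, an inducer of anterior HOX genes in the embryo, were read for all 17 listed. Of these, 4 passed upwards in both lines and 0 downwards, and limma called 3 of 13 tested, where 5.89% of all genes passed upwards and 0.601% downwards and limma called 2.6% of all probes higher. CRABP2, which carries retinoic acid to the nucleus, gave 98.3 and 3230.2, and 47.7 and 4506, 26.1-fold and 63.8-fold higher (limma adjusted p = 0.0176). DHRS3, which reduces retinal to retinol, was 23.0-fold and at least 14.6-fold higher (limma adjusted p = 0.016). CYP26A1, which breaks retinoic acid down, was 12-fold and at least 9.73-fold higher (limma adjusted p = 0.0178). ALDH1A3, which makes retinoic acid, was 3.77-fold and 2.39-fold higher (limma adjusted p = 0.0952). The 4 genes thus include ones that make, carry and remove retinoids. The receptors RARA and RXRA passed upwards in TR9-MeTA14 alone, at 2.43-fold and 2.21-fold, against 1.81-fold and 1.54-fold in TR15-MeTA5. RXRG, another receptor, and ALDH1A1, a second enzyme that makes retinoic acid, passed downwards in TR9-MeTA14 alone (3.05-fold and 2.21-fold lower). Both were dim in TR9-MeTA14. RXRG gave 38.4 and 15.9, the latter near the lowest flagged signal of the +Tet array (13.9). ALDH1A1 gave 56.4 and 32.1. In that line 13% of all genes passed upwards and 11.7% downwards.

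The chromatin regulators of the clusters passed in neither direction in both lines. Of 22 Polycomb group genes read, 3 were at least 2-fold higher (CBX8, PCGF3 and PHF19) and 3 lower (EZH2, RNF2 and PCGF5) in TR9-MeTA14, and 0 passed in TR15-MeTA5. For comparison, 13% of all genes were higher and 11.7% lower in TR9-MeTA14, and 7.2% and 1.63% in TR15-MeTA5. EZH2, the main histone H3 lysine methyltransferase of the group, was 2.53-fold lower in TR9-MeTA14 and 1.5-fold lower in TR15-MeTA5. Of 14 Trithorax group genes, 1 was higher in TR9-MeTA14 (WDR5, 2.57-fold) and 0 passed in TR15-MeTA5.

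Genes that flank the clusters on the chromosome passed the cut-off in both lines in 0 of 12 cases, in either direction, where 5.89% of all genes passed upwards and 0.601% downwards, so that 0 is near the background. Of the 12, 11 were above background on all arrays, and their median log2 changes were -0.27 and -0.26, where those of all probes above background on all arrays were -0.15 and -0.19. One, TTLL6 beside HOXB, was lower in TR9-MeTA14 (2.43-fold).

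Some markers of cell type moved with tetracycline as well. All 6 luminal prostate markers were above background on all arrays, which fits the label of the lines, but 3 (KLK3, KLK2 and TMPRSS2) were at least 2-fold lower in TR9-MeTA14 and 0 in TR15-MeTA5, where 11.7% and 1.63% of all genes were. Their summed signal was 261801 and 123377 in TR9-MeTA14 and 210254 and 195957 in TR15-MeTA5. None of 3 basal markers was above background on any array, and of 6 fibroblast markers only COL1A1 was. COL1A1 stayed within the cut-off in both lines (1.18-fold lower and 1.81-fold higher). All 3 blood markers were above background on at least 1 array, but they did not move one way. CD14 passed upwards in both lines (9.61-fold and 4.77-fold). CD3E was 1.33-fold higher in TR9-MeTA14 and at least 2.55-fold lower in TR15-MeTA5, and PTPRC was 1.18-fold higher and 1.53-fold lower. CD3E was dim in TR15-MeTA5, at 41.2 and 23.9, the latter not well above background. The summed blood signal was 191 and 1025 in TR9-MeTA14 and 203 and 502 in TR15-MeTA5, of which CD14 gave 69.4 and 839.8, and 52.9 and 373. The part of these shifts in the HOX values was not tested.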

How the data were processed

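The authors hybridised Cy3-labelled cRNA from each of 4 cultures to Agilent whole human genome arrays and deposited the spot intensity of each array. Per the file headers, images were read with Agilent Feature Extraction 10.7.3.1, while the submitters' processing notes name 9.5.1. The deposited processed signal is an intensity after background subtraction within the array, with no normalization between arrays. The series table deposited beside the arrays holds the same values. Array annotation named hg19, which gave no coordinates here.

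Outlier spots (255 to 344 per array) were left out, log2 signals of a probe's spots were averaged and the 75th percentile over non-control probes was subtracted. Probes with a RefSeq accession were named from a RefSeq table (GRCh38.p14), and 74.5% of probes were paired with 1 gene. The HOX probes are reported one by one. For listed genes the brightest probe was taken, and list members at least 2-fold changed in the same direction in both lines are named; others were singled out after their values were seen. Of the HOX genes and of the gene lists, some genes are not reported here, and all counts leave them out. The HOX members and the gene lists were chosen with earlier results of these data known. The design gave 1 array per condition, so that per-line changes have no p-value, and limma (3.58.1, R 4.3.3; lmFit, eBayes with trend, adjusted p under 0.05) was run over both lines. Fold bounds and limma were tested on simulated data. All arrays lay on 1 slide. Alternatives were quantile normalization, scaling on the median, on spots or on spike-in probes, normexp (offset 50) with quantile normalization, the series table, other filters on dim probes, averages over all probes of a gene, cut-offs of 3-fold and 1.5-fold, and limma without block or trend. The number of arrays limits the precision. The p-values rest on the spread between 2 lines, which limma pulls towards a trend over all probes tested.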

Additional observations from a re-analysis of the deposited data

How the results depend on the processing

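The 2 lines were single cultures on 1 slide, so the spread between cultures is unknown, and dim probes give bounds only. No paired analysis was possible because every group carries replicate number 1, other than by line. The line pairs -Tet with +Tet and is the block in limma, and without that block limma also called 4 HOX probes higher, with 17 in place of 20 at an unadjusted p under 0.05. Of all 22808 probes, limma without the block called 548, and 2760 had an unadjusted p under 0.05. Leaving out 1 array leaves no residual degrees of freedom, so the values of each line stand in for it.

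Quantile normalization, scaling on the median or on spots, and the series table changed no count of HOX probes by more than 1.5 times, except limma with the percentile over spots (7 higher, from 4). That limma run called 980 of all 22808 probes. Restricting to probes above background on all 4 arrays, or on both -Tet arrays (chosen after seeing the data), gave 8 higher in TR9-MeTA14 (from 15), 8 higher in TR15-MeTA5 (from 15), 7 higher in both (from 12), 2 higher between the induced lines (from 6) and 0 called by limma. Of all probes above background on both -Tet arrays, 11.9% were higher in TR9-MeTA14, 5.27% in TR15-MeTA5 and 4.5% in both. Under these filters limma called 182 of all 19298 and 149 of all 19909 probes. A 3-fold cut-off gave 8 higher in TR9-MeTA14, 9 higher in TR15-MeTA5, 5 higher in both, 0 and 0 between the uninduced lines and 3 higher and 0 lower between the induced lines. At 1.5-fold 2 were lower in TR9-MeTA14 (from 1), the uninduced lines gave 4 higher and 2 lower and the induced lines 3 lower. Normexp gave 7 higher in both, 0 and 0 between the uninduced and 3 and 0 between the induced lines. Plain ratios without a filter gave 3 lower in TR9-MeTA14, 2 lower in TR15-MeTA5 (from 0), 4 higher and 2 lower between the uninduced lines, 15 higher between the induced lines, and 12 higher by limma. Without a filter limma called 1325 of all 34112 probes. Spike-in scaling gave 0 higher and 6 lower between the uninduced lines, 3 and 8 between the induced lines, and 13 higher by limma. With that scaling limma called 1311 of all 22808 probes. The alternatives between the induced lines were chosen after seeing the data. The cause of these shifts was not tested. For the fold counts at 3-fold and 1.5-fold, with normexp and without a filter, the share of all probes is not given. The same holds for the filtered counts between the induced lines. Whether those counts exceed the background cannot be told from them.

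Of 46 log2 changes of single genes, no called value changed sign under any alternative. Spike-in scaling shifted 46 by more than the spot error, normexp 36, quantile normalization 20, plain ratios 16 and the mean over probes 6. Spike-in scaling moved the median of all probes from -0.15 and -0.19 to -0.01 and 0.25.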
